A study of Sus scrofa with 18 samples.

Results

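The regulators of clotting and fibrinolysis described here are F3, TFPI, THBD, PROCR, PLAT, PLAU and PLAUR, which start blood clotting at the vessel wall, restrain it, or dissolve the clot. Their members were the probe sets that the array's probe table assigns to exactly 1 of these 7 symbols, whatever their values. Such a probe set was found for 6 of the 7 genes, 1 for each gene, giving 6 of the 23935 probe sets tested. By the table's Entrez gene identifiers these are 396677 for F3, 100155068 for TFPI, 100157642 for THBD, 654289 for PROCR, 397121 for PLAT and 396985 for PLAU. PLAUR, the receptor of the urokinase encoded by PLAU, has none in the table used here and is named only.

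Right ventricular free wall, a bulk tissue of many cell types, was sampled in 9 pigs, which were crosses of Swedish Landrace, Yorkshire and Hampshire. Each pig gave a sample in failure, induced by ligating coronary arteries on that wall, and a sample at baseline, so each animal is its own control and the study holds 9 failure and 9 baseline arrays. Failure was labelled in different words: as heart failure, defined by a right atrial pressure over 20 mmHg, in 3 pigs weighing 30 to 40 kg (pigs 5, 10 and 14, here pressure-labelled), and as 120 min of ischemia in the other 6 (pigs 6, 8, 9, 11, 12 and 13, here ischemia-labelled). For the pressure-labelled pigs the labels give no time after ligation. The baseline tissue comes from the same animals before ligation, with no group of operated but unligated animals, so ligation and elapsed time cannot be told apart.

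Clotting in tissue begins when tissue factor, the product of F3, meets blood and binds factor VII. Endothelial cells hold this back with tissue factor pathway inhibitor (TFPI), with thrombomodulin (THBD), which turns thrombin toward activating protein C, and with the endothelial protein C receptor (PROCR), which presents protein C for that step. Fibrin that has formed is cut by plasmin, which tissue-type and urokinase-type plasminogen activators (PLAT and PLAU) release from plasminogen, and thrombomodulin and the activators are known to respond to blood flow, inflammation and hypoxia.

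No member passed the test of failure against baseline. After limma's moderated test with pig as a block, Benjamini-Hochberg adjustment over all probe sets left 0 of 6 members under an adjusted p of 0.05, where 16 of 23935 probe sets passed in all, or 0.0668%. At an unadjusted p under 0.05, 1 of 6 members (THBD) stood beside 1470 probe sets, or 6.14%. The mean change lay above 0 for 5 of 6 members, with TFPI as the exception, against 50.2% of all probe sets. The median change of the members was 0.16 on the log2 scale, and that of all probe sets was 0.000344. All changes given are log2 intensity in failure minus log2 intensity at baseline in the same pig, and a change of 1 is a doubling. In bulk tissue, fewer cells of a type and less RNA per cell cannot be told apart.

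All 9 markers of ventricular muscle were on the array, none lay below the 25th percentile of signals on all arrays, 0 of them passed the test, and their summed linear intensity was 130166 to 168220 in failure and 146397 to 162899 at baseline. Of the 5 markers of red blood cells on the array, 3 fell with an adjusted p under 0.05 in limma, and their summed intensity was 399 to 930 in failure and 720 to 2166 at baseline, lower in all 9 pigs. Lymphocyte markers (6 of 8 on the array, 5 with a mean change below 0, 0 past the test, CD4 below the 25th percentile on all arrays) summed to 120 to 155 in failure and 134 to 171 at baseline, lower in 8 of 9 pigs. The part of either cell type in the members' changes was not tested. RNA quality differed between arrays. On each array GAPDH has separate control probe sets toward its 3' and its 5' end, and the 3' minus 5' log2 value, which grows as RNA breaks down, was 3.55 in failure and 2.61 at baseline in pig 5, and lay between 0.31 and 2.17 in failure and 0.61 and 1.49 at baseline in the other 8 pigs.

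**Figure D1:**
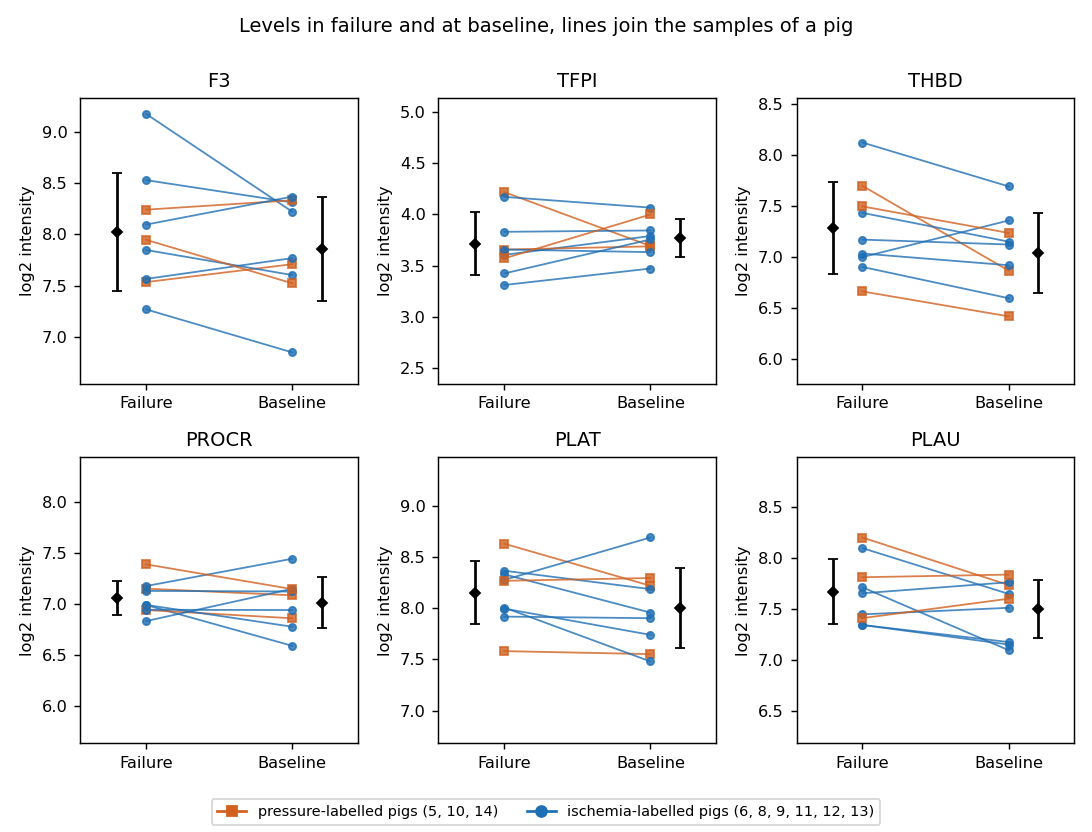
Log2 intensity of the 6 measured genes (vertical axes, each spanning the same number of log2 units) in failure and at baseline, with a line joining the samples of each of 9 pigs, and the mean and SD of each group in black (n = 9). Failure and baseline overlap for every gene, and the THBD lines of 8 pigs are higher at the failure end.

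F3, the cell-surface trigger of clotting, varied more between pigs than with failure. Its log2 intensity ran from 7.27 in pig 9 through a median of 7.95 to 9.18 in pig 6 in failure, and from 6.85 in pig 9 through 7.77 to 8.37 in pig 12 at baseline. The groups overlapped widely, and pig 9 was lowest in both. The means were 8.02 ± 0.58 in failure and 7.85 ± 0.51 at baseline (SD, n = 9 each), a change of 0.17 (SE 0.11, 95% interval -0.07 to 0.41, limma adjusted p = 0.887). F3 was higher in failure in 5 of 9 pigs, by 0.96 in pig 6, 0.43 in pig 14, 0.42 in pig 9, 0.25 in pig 11 and 0.22 in pig 8. It was lower in the other 4, with the lowest change of -0.27 in pig 12. The pig 6 change was 1.94-fold, and the mean over the other 8 pigs was 0.07. The SD of the F3 changes, 0.40, was larger than that of 93.5% of all probe sets.

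The F3 changes were set against the GAPDH measure of RNA quality, with no relation past adjustment. Across the 9 pigs, r was -0.65 (exact permutation p = 0.0593, or 0.356 adjusted over the family of 18 relations) and rho was -0.73 (exact permutation p = 0.0311, adjusted 0.140). Without pigs 5 and 13, whose GAPDH measure changed most, r was -0.48, and within the 6 ischemia-labelled pigs it was -0.66. With the measure as a covariate, the F3 change was 0.28 (SE 0.10, 95% interval 0.06 to 0.50), which still missed the threshold (limma adjusted p = 0.672). A second GAPDH pair on the array gave r = -0.34 (exact permutation p = 0.360, adjusted 0.586 over 6 members) and rho = -0.53 (exact permutation p = 0.148, adjusted 0.443), and r was -0.00351 without pigs 9 and 13 and -0.41 within the ischemia-labelled pigs. The part of RNA quality in the F3 change beyond these values was not tested.

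TFPI, the inhibitor of the tissue factor and factor VIIa complex, gave a dim signal. On 15 of 18 arrays its probe set was dimmer than the 25th percentile of all probe sets (3.91 to 4.07 by array), so that its values carry little information on the level. Log2 intensity ran from 3.31 in pig 12 through 3.66 to 4.22 in pig 5 in failure, and from 3.47 in pig 12 through 3.76 to 4.07 in pig 9 at baseline. The baseline range lay inside the failure range. The mean change was -0.05 (SE 0.08, 95% interval -0.24 to 0.13, limma adjusted p = 0.957), with 3 pigs higher and 6 lower. The extremes were both pressure-labelled, pig 5 with 0.53 and pig 14 with -0.43, and the mean was -0.13 without pig 5 and -0.00806 without pig 14. Against the GAPDH measure, the TFPI changes had r = 0.15 over all 9 pigs (exact permutation p = 0.714, adjusted 0.909) but -0.96 within the ischemia-labelled pigs. With the second GAPDH pair, r was -0.32 (exact permutation p = 0.391, adjusted 0.586) and -0.94. The part of RNA quality in the TFPI changes was not tested.

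THBD, the endothelial thrombin receptor of the protein C pathway, had the smallest p of the members. Its log2 intensity ran from 6.66 in pig 10 through 7.17 to 8.12 in pig 6 in failure, and from 6.42 in pig 10 through 7.12 to 7.69 in pig 6 at baseline. The groups overlapped, with pig 10 lowest and pig 6 highest in both. Within pigs, THBD was higher in failure in 8 of 9, by 0.83 in pig 5, 0.43 in pig 6, 0.31 in pig 12, 0.28 in pig 9, 0.26 in pig 14, 0.24 in pig 10, 0.12 in pig 11 and 0.05 in pig 13. Pig 8 alone was lower, by a change of -0.36. Of all probe sets, 532 (2.22%) were higher in at least 8 of 9 pigs.

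The means of THBD were 7.28 ± 0.45 in failure and 7.04 ± 0.39 at baseline (SD, n = 9 each). The change of 0.24 (SE 0.09, 95% interval 0.04 to 0.44), or 1.18-fold, had a limma p of 0.0208 and an adjusted p of 0.695. The exact sign-flip permutation test on the 9 changes gave p = 0.0508 (two-sided). The size of the change rested on single pigs: it was 0.17 without pig 5 (95% interval -0.01 to 0.34) and 0.31 without pig 8 (SE 0.08, limma adjusted p = 0.387). Pig 5 had both the highest THBD change and the highest GAPDH difference in both samples. With the GAPDH covariate the change was 0.22 (95% interval -0.00405 to 0.44, limma adjusted p = 0.785).

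PROCR, the receptor that works beside thrombomodulin, had the mean change nearest to 0 of the 6 genes. Log2 intensity ran from 6.83 in pig 11 through 6.99 to 7.39 in pig 14 in failure, and from 6.59 in pig 6 through 7.08 to 7.44 in pig 9 at baseline. The failure range lay inside the baseline range. The mean change was 0.05 (SE 0.07, 95% interval -0.11 to 0.21, limma adjusted p = 0.957). It was above 0 in 7 of 9 pigs, although in pigs 8 and 13 only by 0.00593 and 0.00301. The largest change was 0.40 in pig 6, without which the mean was 0.00334, and pigs 9 and 11 had changes of -0.27 and -0.32.

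PLAT, the tissue-type plasminogen activator released mainly by endothelium, lay somewhat higher in most pigs. Its log2 intensity ran from 7.58 in pig 10 through 8.27 to 8.63 in pig 5 in failure, and from 7.48 in pig 12 through 7.96 to 8.69 in pig 9 at baseline. The highest value of all was a baseline one, and the groups overlapped. The means were 8.15 ± 0.31 in failure and 8.004 ± 0.39 at baseline (SD, n = 9 each), a change of 0.15 (SE 0.09, 95% interval -0.03 to 0.33, limma adjusted p = 0.864). PLAT was higher in 7 of 9 pigs, most in pig 12 (0.53), pig 5 (0.41) and pig 6 (0.37), although in pigs 10 and 11 only by 0.03 and 0.02. It was lower in pig 9 by a change of -0.42 and in pig 14 by -0.03. Without pig 9 the mean change was 0.22 (limma adjusted p = 0.565).

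The PLAT changes were set against cell type markers and RNA quality, and no relation passed after adjustment. Of 14 endothelial markers, 10 were on the array, 0 passed the test, the median change was 0.01, and none was below the 25th percentile on all arrays. Their summed linear intensity was 1919 to 4527 in failure and 2088 to 3877 at baseline. Across the 9 pigs, the mean change of the 10 markers correlated with that of PLAT. Here r was 0.87 (exact permutation p = 0.00338, or 0.0609 adjusted over the 18 relations) and rho was 0.77 (exact permutation p = 0.0214, adjusted 0.140). Without pigs 6 and 9, at the ends of the marker range, r was 0.69, and within the ischemia-labelled pigs it was 0.92. Pig 9 had the lowest marker change (-0.35) and the lowest PLAT change, and pig 6 had the highest marker change (0.23).

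Monocyte and macrophage markers and PLAT had r = 0.54 (exact permutation p = 0.132, adjusted 0.475) and rho = 0.75 (exact permutation p = 0.0255, adjusted 0.140), with r = 0.82 without pigs 8 and 9 and 0.54 within the ischemia-labelled pigs. For the GAPDH measure and PLAT, r was 0.73 (exact permutation p = 0.0254, adjusted 0.229) and rho was 0.85 (exact permutation p = 0.00607, adjusted 0.109), with r = 0.89 without pigs 5 and 13 and 0.66 within the ischemia-labelled pigs. With that covariate the PLAT change was 0.06 (95% interval -0.10 to 0.23, limma adjusted p = 0.945). With a second GAPDH pair on the array, r for PLAT was 0.73 (exact permutation p = 0.0291, adjusted 0.174 over 6 members) and rho was 0.68 (exact permutation p = 0.0503, adjusted 0.302), with r = 0.71 without pigs 9 and 13. The endothelial markers correlated with THBD, which is also endothelial, with r = -0.08 (exact permutation p = 0.828, adjusted 0.913) and rho = 0.07 (exact permutation p = 0.880, adjusted 0.982). Without pigs 6 and 9 that r was -0.28, and within the ischemia-labelled pigs -0.07. The part of endothelial or macrophage content in these changes was not tested.

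PLAU, the urokinase-type activator made by several cell types including macrophages and fibroblasts, split the pigs. Its log2 intensity ran from 7.35 in pig 13 through 7.66 to 8.20 in pig 5 in failure, and from 7.10 in pig 9 through 7.60 to 7.84 in pig 10 at baseline. The groups overlapped over most of their range. The mean change was 0.17 (SE 0.09, 95% interval -0.02 to 0.35, limma adjusted p = 0.838). Without pig 9 it was 0.11, and without pig 14 it was 0.21 (95% interval 0.02 to 0.40, limma adjusted p = 0.693). PLAU was higher by 0.62 in pig 9, 0.47 in pig 5, 0.45 in pig 6, 0.19 in pig 12 and 0.17 in pig 13. The other 4 pigs had changes between -0.19 and -0.03. Monocyte and macrophage markers (8 of 13 on the array, 0 past the test, ITGAM below the 25th percentile on all arrays) summed to 711 to 1641 in failure and 834 to 1785 at baseline, and their mean change correlated with that of PLAU with r = -0.33 (exact permutation p = 0.412, adjusted 0.909) and rho = -0.05 (exact permutation p = 0.912, adjusted 0.982). Without pigs 8 and 9 this r was 0.58, and within the ischemia-labelled pigs it was -0.63, so that its sign rested on which pigs were included.

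**Figure D2:**
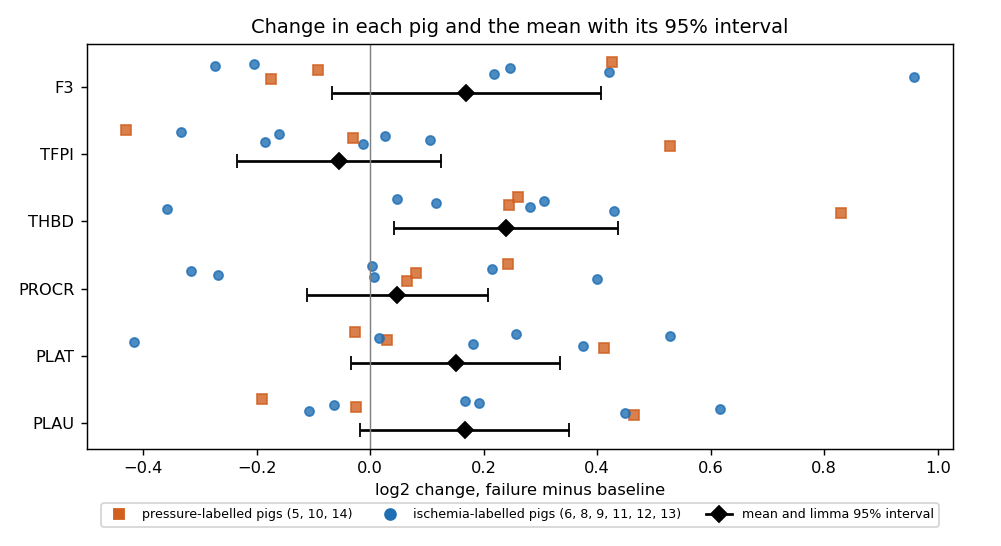
Log2 change of each gene in each of the 9 pigs (squares, pressure-labelled; circles, ischemia-labelled) with the mean and its 95% interval from limma (diamonds and bars). The THBD interval, 0.04 to 0.44, is the only one that does not reach 0.

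The labels raise the question of whether the changes differed between pressure-labelled and ischemia-labelled pigs. They did not pass as different for any member, with 0 of 23935 probe sets (0.0%) called for this difference by limma and 1356 at an unadjusted p under 0.05. The THBD change was 0.44 ± 0.33 in pressure-labelled pigs (SD, n = 3, higher in 3 of 3) and 0.14 ± 0.28 in ischemia-labelled pigs (n = 6, higher in 5 of 6), a difference of 0.31 (SE 0.18, limma adjusted p = 0.910) that was 0.12 without pig 5. For PROCR the changes were 0.13 ± 0.10 and above 0 in 3 of 3 pressure-labelled pigs, against 0.01 ± 0.27 in ischemia-labelled pigs (difference 0.12, SE 0.16, limma adjusted p = 0.971). F3 and PLAU had lower means in the pressure-labelled pigs, by differences of -0.17 (SE 0.24) and -0.13 (SE 0.19), and the F3 difference was -0.03 without pig 6. For TFPI and PLAT the differences were 0.12 (SE 0.18) and -0.02 (SE 0.19). The standard errors of 0.16 to 0.24, with 3 pigs in the smaller set, were of the size of the mean changes themselves. The label sets also fall in separate blocks of sample numbers, so label wording and any batch of submission cannot be told apart.

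The members' changes differed from gene to gene within a pig. Their summed linear intensity, which weights the brighter probe sets, was 885 to 1595 in failure and 852 to 1144 at baseline and was higher in failure in 9 of 9 pigs (log2 change of the sum 0.15 ± 0.19, SD). That mean was smaller than its SD, so the rise was not uniform. The median member change was 0.00188 in pig 10 and -0.05 in pig 8, although the sum was higher in both. The sum was not tested, and the share of other gene sets higher in all 9 pigs was not counted. Pigs 5 and 6 had 5 of 6 members higher in failure, with a median member change of 0.44 and 0.41, and the odd one out was F3 in pig 5 (-0.18) and TFPI in pig 6 (-0.01). In the other pigs 3 or 4 members were higher, and the median change lay between -0.05 in pig 8 and 0.20 in pig 12. Pig 9 combined the highest PLAU change with the lowest PLAT change, so the plasminogen activators went opposite ways in that animal. Pig 8 had higher F3 (0.22) beside lower THBD (-0.36).

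**Figure D3:**
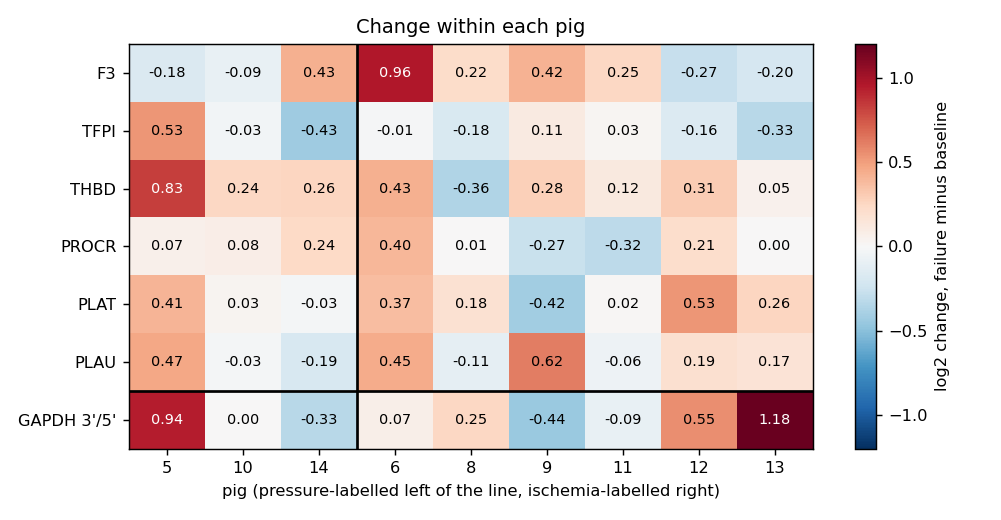
Log2 change of each gene (rows) in each pig (columns, pressure-labelled left of the line), with the change in the GAPDH 3' minus 5' difference in the bottom row. Red is higher in failure and blue lower; pigs 5 and 6 are red in 5 of the 6 gene rows.

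Over the 15 pairs of members, r of the changes across the 9 pigs ran from -0.31 to 0.66, and for 0 pairs was the p of r under 0.05 before or after adjustment (smallest adjusted exact permutation p = 0.316). TFPI and THBD, both inhibitors of clotting, had r = 0.66 (exact permutation p = 0.0637, adjusted 0.316) and rho = 0.55 (exact permutation p = 0.133, adjusted 0.498), and r was 0.48 without pigs 5 and 14 and 0.47 in the ischemia-labelled pigs. TFPI and PLAU had r = 0.63 (exact permutation p = 0.0646, adjusted 0.316) and rho = 0.72 (exact permutation p = 0.0369, adjusted 0.377), with r = 0.39 without pigs 5 and 14 and 0.47 in the ischemia-labelled pigs. The protein C receptor and PLAT had r = 0.62 (exact permutation p = 0.0734, adjusted 0.316) and rho = 0.40 (exact permutation p = 0.291, adjusted 0.624), with r = 0.64 without pigs 6 and 11 and 0.81 in the ischemia-labelled pigs. TFPI enters the first 2 of these with its dim values. Leaving out 1 pig at a time, r ran from 0.25 to 0.78 for TFPI and THBD. It ran from 0.51 to 0.69 for TFPI and PLAU, and from 0.42 to 0.75 for PROCR and PLAT. PLAT and PLAU, the plasminogen activators, had r = 0.01 (exact permutation p = 0.982, adjusted 0.982) and rho = 0.30 (exact permutation p = 0.437, adjusted 0.728). Without pigs 9 and 12 their r was 0.92, and in the ischemia-labelled pigs it was -0.34, so the relation rested on which pigs were included.

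Levels in failure were also set against levels at baseline across the pigs, and 0 of 6 members passed after adjustment. The r was above 0 for 6 of 6 members, from 0.44 for PROCR to 0.74 for F3, against 86.7% of all probe sets and a median r of 0.51 over them. For TFPI, r was -0.26 without pigs 9 and 12. For F3, r was 0.74 (exact permutation p = 0.0223, adjusted 0.0820) and rho was 0.68 (exact permutation p = 0.0503, adjusted 0.199), with r = 0.72 without pigs 9 and 12 and 0.76 in the ischemia-labelled pigs. For THBD, r was 0.72 (exact permutation p = 0.0273, adjusted 0.0820) and rho was 0.58 (exact permutation p = 0.108, adjusted 0.199). That relation rested on pigs 6 and 10, the highest and lowest at baseline, without which r was 0.18, and in the ischemia-labelled pigs r was 0.79.

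The other genes of the same pathways were described from 5 lists. Of their 59 genes, 38 had a probe set, 0 of 38 passed (0.0668% of all probe sets did), 20 had a mean change above 0 and 18 below, and the median change was 0.02. Limma adjusted p-values ran from 0.637 to 0.997.

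The coagulation cascade had 11 of 20 genes on the array, 4 higher and 7 lower, with a median change of -0.03. Most are liver genes, and F12, FGB, FGG and KLKB1 lay below the 25th percentile on all 18 arrays. VWF, the endothelial carrier of factor VIII and platelet tether, had a change of 0.01 (SE 0.12). F2R, the thrombin receptor PAR1, had a change of -0.01 (SE 0.07), and F2RL2, the related receptor PAR3, 0.13 (SE 0.09).

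Among the anticoagulants, 7 of 10 genes were on the array, 4 higher and 3 lower, with a median change of 0.06. PROS1, the protein S cofactor of activated protein C, was higher in 7 of 9 pigs with a change of 0.15 (SE 0.07, limma adjusted p = 0.837). PROC, protein C itself, had 0.19 (SE 0.07, adjusted p = 0.687 in limma, 6 of 9 pigs higher). SERPIND1, heparin cofactor II, had 0.17 (SE 0.06, higher in 9 of 9 pigs, limma adjusted p = 0.637), the smallest p of the 38 genes. Both are made chiefly in liver and gave dim signals here, PROC below the array median on 18 of 18 arrays and SERPIND1 below the 25th percentile on 15. The dimmer SERPIND1 probe set was higher in 4 of 9 pigs, with a change of 0.02 (limma adjusted p = 0.986). The deposited values of PROC and of the brighter SERPIND1 probe set carry 2 decimals, whereas 0 of the 6 members are rounded so coarsely.

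In the plasminogen system, 8 of 14 genes were on the array, 6 higher and 2 lower, with a median change of 0.07. SERPINE2, protease nexin 1 and an inhibitor of thrombin and of the plasminogen activators, had a change of 0.18 (SE 0.13), or 0.08 without pig 8. ANXA2 and S100A10, which together form a cell-surface site for PLAT and plasminogen, had changes of 0.06 (SE 0.10) and 0.03 (SE 0.08). A2M, a broad protease inhibitor that also takes up plasmin, had 0.27 (SE 0.12, higher in 7 of 9 pigs, limma adjusted p = 0.803). Pig 8 had an A2M change of 1.23, and without it the mean was 0.14 (95% interval -0.04 to 0.33). The brightest of the 3 A2M probe sets gave these values, and the other two gave 0.04 and 0.05.

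**Figure D4:**
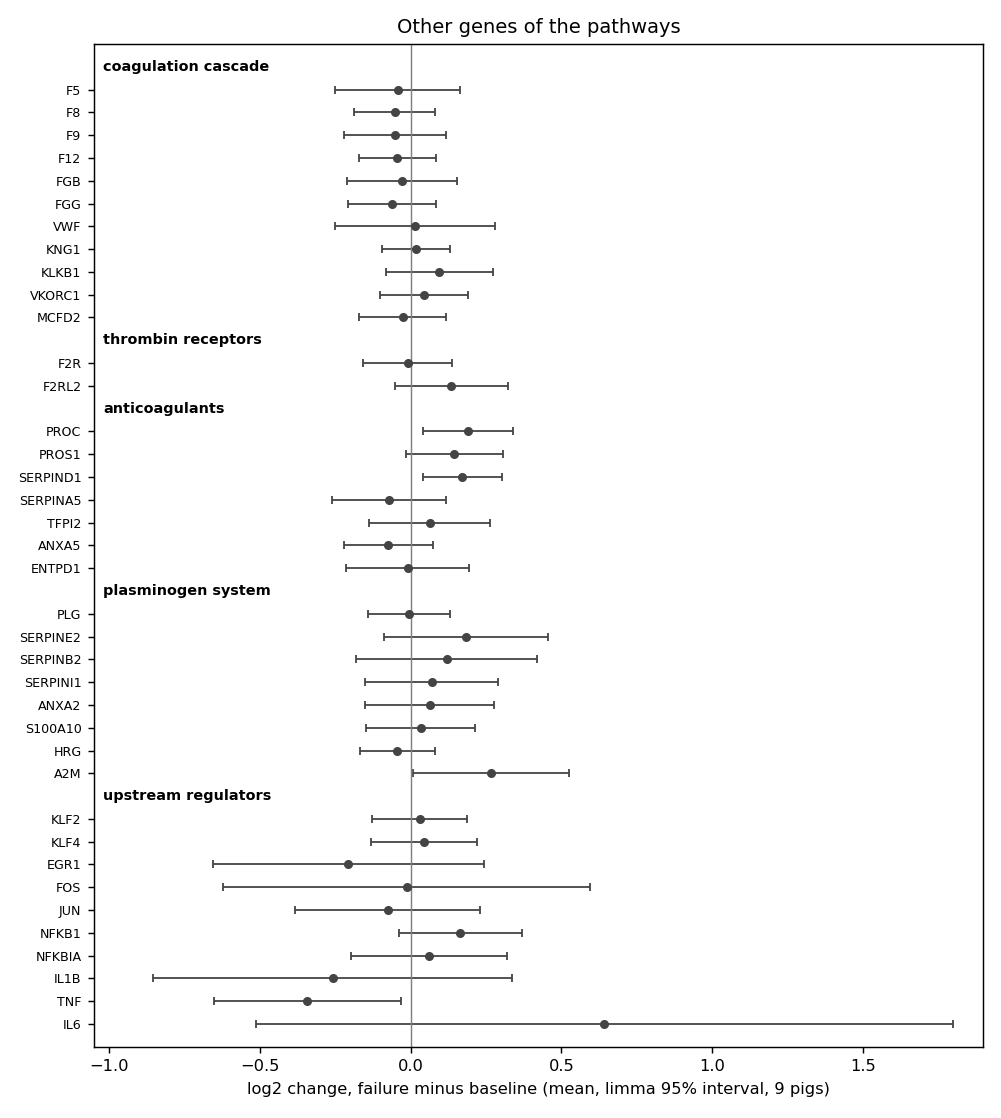
Mean log2 change in failure minus baseline with its limma 95% interval (horizontal axis, n = 9 pigs) for the 38 other pathway genes on the array, grouped by list. The intervals of PROC, SERPIND1, A2M and TNF do not reach 0 over all 9 pigs, that of A2M includes 0 without pig 8, and those of IL6, FOS and IL1B are the widest.

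The fifth list held 10 regulators on the array that are known to act on the members, with 5 higher, 5 lower and a median change of 0.01. KLF2 and KLF4, flow-responsive transcription factors that raise THBD in endothelium, had changes of 0.03 (SE 0.07) and 0.04 (SE 0.08). The KLF2 signal was dim, below the array median on 18 of 18 arrays. EGR1, an immediate early factor that acts on the F3 promoter, had -0.21 (SE 0.21), with -0.04 without pig 8 and -0.40 without pig 12. These values are from its brightest probe set, and the dimmer ones gave -0.06 and -0.12. IL6 and TNF, inflammatory cytokines, had changes of 0.64 (SE 0.54) and -0.34 (SE 0.15, lower in 7 of 9 pigs, limma adjusted p = 0.753). TNF lay below the array median on 15 of 18 arrays. The IL6 mean was 0.17 without pig 5, 0.35 without pig 9 and 1.09 without pig 8, and the TNF mean was -0.18 without pig 8, whose own TNF change was -1.68.

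Across the pigs, the changes of the regulators were set against those of the members. Over 60 relations between the 10 regulators and the 6 members, 5 had an unadjusted exact permutation p under 0.05 for r and 0 passed after adjustment. IL6 and THBD had r = 0.85 (exact permutation p = 0.00820, adjusted 0.267) and rho = 0.68 (exact permutation p = 0.0503, adjusted 0.499). The IL6 change was 4.45 in pig 5 and -2.92 in pig 8, the pigs with the highest and lowest THBD changes. Both extremes contain a dim value, IL6 at baseline in pig 5 (3.62) and in failure in pig 8 (3.89). Without pigs 5 and 9, whose IL6 changes lay farthest from the median, r was 0.81, and within the ischemia-labelled pigs it was 0.75.

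TNF and THBD had r = 0.84 (exact permutation p = 0.0120, adjusted 0.267) and rho = 0.77 (exact permutation p = 0.0214, adjusted 0.499), with r = 0.31 without pigs 5 and 8 and 0.89 in the ischemia-labelled pigs. IL1B, another inflammatory cytokine, and THBD had r = 0.81 (exact permutation p = 0.0156, adjusted 0.267) and rho = 0.57 (exact permutation p = 0.121, adjusted 0.613), with r = -0.04 without pigs 5 and 8 and 0.77 in the ischemia-labelled pigs. NFKBIA, an NF-kappaB target that feeds back on that factor, and THBD had r = 0.84 (exact permutation p = 0.0178, adjusted 0.267) and rho = 0.55 (exact permutation p = 0.133, adjusted 0.613), with r = 0.00405 without pigs 5 and 8 and 0.85 in the ischemia-labelled pigs. NFKB1, the subunit of that factor in the same list, and THBD had r = -0.15 (exact permutation p = 0.662, adjusted 0.972) and rho = -0.18 (exact permutation p = 0.644, adjusted 0.929), with r = -0.08 without pigs 10 and 11 and -0.10 in the ischemia-labelled pigs. NFKB1 was below the 25th percentile on 16 of 18 arrays. The TNF, IL1B and NFKBIA relations thus rested on pigs 5 and 8, the pigs at the ends of the THBD changes. For IL6 the pigs left out were 5 and 9, so pig 8 stayed in and its r of 0.81 cannot be compared with theirs. Apart from pigs 5 and 8, the highest IL6 change was 2.997 in pig 9 and the lowest -0.51 in pig 10. The THBD changes of pigs 9 and 10 were close, 0.28 and 0.24. The highest and lowest THBD changes apart from pigs 5 and 8 were 0.43 in pig 6 and 0.05 in pig 13. The IL6 changes of pigs 6 and 13 were -0.16 and -0.05. The r of IL6 and THBD without both pigs 5 and 8 was not tested. KLF4 and PLAT had r = 0.67 (exact permutation p = 0.0499, adjusted 0.481) and rho = 0.72 (exact permutation p = 0.0369, adjusted 0.499), with r = 0.37 without pigs 6 and 12 and 0.81 in the ischemia-labelled pigs. KLF2 and THBD had r = 0.24 (exact permutation p = 0.524, adjusted 0.951). KLF4 and THBD had r = 0.07 (exact permutation p = 0.864, adjusted 0.972), and EGR1 and F3 -0.09 (exact permutation p = 0.815, adjusted 0.972). For these pairs in turn, rho was 0.55, 0.18 and 0.08, and r in the ischemia-labelled pigs was 0.67, 0.46 and -0.16. Without pigs 12 and 14, 6 and 12, and 8 and 12 in turn, r was 0.54, -0.27 and 0.49.

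**Figure D5:**
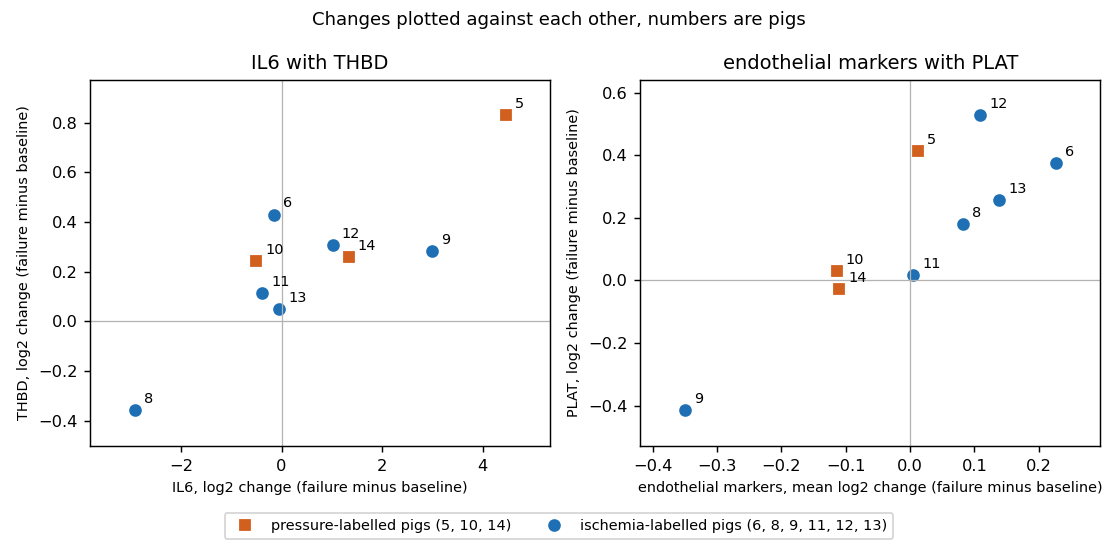
Left, the log2 change in IL6 (horizontal) and THBD (vertical) in each of 9 pigs. Right, the mean log2 change of 10 endothelial markers (horizontal) and the change in PLAT (vertical), with pig numbers beside the points; pigs 5 and 8 mark the ends on the left and pig 9 the low end on the right.

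The genes most like each member were taken by Pearson's r of the changes over 9 pigs among 4924 genes, as a description with no test. These r were picked as the highest of 4924, so they are high by selection and show no shared function. F3 was most like YKT6, a protein of vesicle fusion (r = 0.95), and GSTZ1, an enzyme of tyrosine breakdown (r = 0.90). THBD was most like OSBPL3, an oxysterol-binding protein (r = 0.93), and ANKRD28 (r = 0.91). For PROCR they were MID1IP1 (r = 0.93) and DIS3L2, an RNA exonuclease (r = 0.89). PLAT was most like CD99, a surface protein of leukocytes and endothelium (r = 0.97), and RUSC2 (r = 0.95). For PLAU they were TMEM100, an endothelial membrane protein (r = 0.89), and RGS2, which dampens G protein signalling (r = 0.88). For TFPI, whose values are dim, they were IGDCC3 (r = 0.93) and LOC100511376 (r = 0.92), with r of 0.72 and 0.66 in the ischemia-labelled pigs. The mean changes of these 12 genes ran from -0.08 for GSTZ1 to 0.25 for RGS2, and none passed in limma (adjusted p from 0.695 to 0.988).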

How the data were processed

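The arrays are Affymetrix 3' IVT chips, hybridized with biotin-labelled cRNA from Trizol-extracted, column-purified total RNA, per the labels' protocols. The authors deposited 1 log2 intensity per probe set and array, and the submitters' processing notes name Partek with no version. How background was corrected and arrays were normalized and summarized is not given in the sources used here. Values ran from 2.08 to 15.2, with array medians of 5.59 to 5.66, and were used unchanged. A shift shared by most transcripts would be hidden by any scaling between arrays.

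Of 24123 probe sets, 188 controls were left out and 23935 tested. A single gene is named for 10099 probe sets. A gene outside the members with several probe sets was represented by the one with the highest mean. Genes named are all members, fixed partners from the pathway lists, up to 4 list genes with the smallest p, and the 2 genes most like each member. F13A1, LRP1 and SERPINC1 are partners with no named probe set and are not analysed here. NFKBIA, NFKB1, IL1B, F2RL2, FOS, ITGAM, CD4 and the dim coagulation genes were named after their values were seen. The members and lists were chosen with earlier results of these data known.

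Failure was tested against baseline with limma 3.58.1 in R 4.3.3 (two-sided, pig as a block, threshold adjusted p of 0.05), and the difference between label sets as an interaction. Exact tests enumerated every permutation (scipy 1.17.1, Python 3.11.15). Pairing comes from the pig numbers in the labels. A pig's failure and baseline deviations from their group means correlated with r of 0.449 to 0.750. The pigs are separate animals, and their number limits the precision. Alternatives were other blocks, scalings, variance models and filters, a GAPDH covariate, and pigs left out. The relations of regulators, markers and RNA quality with the members, and their alternatives, were chosen after seeing the data.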

Additional observations from a re-analysis of the deposited data

How the results depend on the processing

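Under every alternative tried, 0 of 6 members passed for failure against baseline. Over all probe sets, 16 passed, against 0 with no replicate block and 0 with an unmoderated paired test. The GAPDH covariate left 9, the ischemia-labelled pigs alone 3, the pressure-labelled pigs alone 0, the mean of all probe sets of a gene 5 of 6765 genes, and leaving out 1 pig at a time 2 to 26. Without the pig block, THBD kept its change of 0.24 with an SE of 0.18, and the pairing changed no call among the members. Over 22 settings the THBD change ran from 0.14 to 0.44 and its limma adjusted p from 0.387 to 0.9999. Changes of sign were of values that passed no test, and the cause was not tested. In the pressure-labelled pigs alone, the change was 0.0223 for TFPI, -0.0376 for PROS1, -0.0591 for SERPINE2, -0.0539 for ANXA2, -0.0813 for S100A10, -0.110 for KLF2 and -0.153 for KLF4. In the ischemia-labelled pigs alone it was -0.0325 for VWF and 0.0252 for F2R, which had 0.00480 after quantile normalization. With the GAPDH covariate it was -0.128 for VWF, -0.00778 for S100A10 and -0.00638 for KLF2. Leaving out 1 pig at a time gave -0.0604 to 0.125 for VWF, -0.0448 to 0.0286 for F2R, -0.0116 to 0.142 for ANXA2, -0.0272 to 0.0910 for S100A10, -0.0240 to 0.0795 for KLF2 and -0.0105 to 0.0946 for KLF4. For the difference between label sets it gave -0.316 to 0.0114 for PLAU, -0.155 to 0.0642 for PLAT, -0.137 to 0.342 for TFPI, 0.115 to 0.408 for THBD, -0.361 to -0.0287 for F3 and 0.0584 to 0.202 for PROCR, and PLAT had 0.000187 with the GAPDH covariate and 2.4e-05 after quantile normalization. The IL6 and THBD relation had r = 0.75 (exact permutation p = 0.122) in the ischemia-labelled pigs and 0.72 (exact permutation p = 0.0614) without pig 5, and TNF and THBD 0.67 (exact permutation p = 0.0675) without pig 8. TFPI has no value with dim probe sets left out, and the mean over probe sets is the same as the main value for members, which have 1 each.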
